A study of Homo sapiens with 13 samples.

Results

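The genes described here are 38 that act in cell division: mitotic kinases, spindle proteins, kinesin motors, cytokinesis proteins, and the CDC25 phosphatases and ubiquitin enzymes that drive entry into and exit from mitosis. They were chosen by symbol from that function, with earlier results of these data known. The comparison lists below were also chosen with those results known, so contrasts with them are descriptions, not independent support. Of the 38 genes, 36 were analysed here among 22613 gene entries (KIF18B and KIFC1 were not). All 36 had a mean level of at least 0.5 FPKM (sequenced fragments scaled to the length of the RNA and the size of the library) over the libraries, the filter that 15780 genes passed. Their levels came from RNA sequencing of LNCaP-abl, an androgen-independent line derived from LNCaP prostate cancer cells and kept in medium with charcoal-stripped serum. Cells received a pool of siRNAs against 1 factor with a lipid reagent and were harvested 72 h later. The 12 knockdown libraries are siBRCA1, siBRCA2, siCTCF, siEED, siEZH2, siFOXA1, siFOXM1, siKDM1A, siPCAT1, siRAD21, siSMARCA4 and the library labelled siMALAT1, and control siRNAs gave the single control library, siControl2. All 12 comparisons share that control. With 1 library per siRNA pool there was no replicate error and no test, so every difference below describes these libraries, and neighbours in an order of levels cannot be separated from one another. The number of reads behind each value is unknown.

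Mitosis is driven by kinases such as PLK1 and AURKA, which mature the centrosomes, assemble the spindle and time chromosome separation. Kinesin motors slide, cross-link and depolymerise spindle microtubules, and a further set of proteins builds the contractile ring and the midbody through which daughter cells part. Most of these genes are transcribed late in the cell cycle, and many of their promoters carry a cell cycle genes homology region (CHR), a short element bound by the MuvB core with either repressors of the RB family or the activators MYBL2 and FOXM1, often near CCAAT boxes bound by NF-Y.

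RefSeq promoter windows on GRCh38.p14, from 250 bases before to 50 bases after the start of transcription, were found for 32 of the 38 genes. AURKA, PBK, TPX2, TROAP, RACGAP1 and UBE2C were not matched. A CHR core, searched as TTTGAA or TTCGAA on both strands, lay in 22 of the 32 windows (68.8%), against 16.6% of the 27305 windows in the table, 1 per symbol. A CCAAT box on either strand lay in 23 of them (71.9%), against 35.7% of all windows. Both together were found in 19 (59.4%), against 6.58% of all. An E2F core (TTTCGCGC, TTTGGCGC or TTTCCCGC) was found in 3, NUSAP1, KIF15 and CDC25A, or 9.38% against 2.79%. The forkhead core TAAACA was found in 1, ASPM, or 3.12% against 12.4%. None of the words searched contains another, and a match describes letters in a window, not a bound site. Shown next are the 150 bases upstream of the start for 5 genes that hold a CHR core there and whose levels are given in full below. PLK1, CEP55 and ANLN are shown as genes that were at least 2-fold lower in 9 or 10 knockdowns, and KIF22 and CKAP5 as genes that were so in only 5 and 1. They are written 5′ to 3′ on the gene's strand, with CHR cores and CCAAT boxes of either strand in capitals.
PLK1: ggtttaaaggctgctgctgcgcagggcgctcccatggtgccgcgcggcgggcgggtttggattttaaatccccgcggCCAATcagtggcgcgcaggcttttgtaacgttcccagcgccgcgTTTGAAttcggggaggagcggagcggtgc
CEP55: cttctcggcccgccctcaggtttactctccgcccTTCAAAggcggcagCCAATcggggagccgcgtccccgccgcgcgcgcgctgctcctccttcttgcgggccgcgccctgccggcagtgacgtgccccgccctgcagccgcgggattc
ANLN: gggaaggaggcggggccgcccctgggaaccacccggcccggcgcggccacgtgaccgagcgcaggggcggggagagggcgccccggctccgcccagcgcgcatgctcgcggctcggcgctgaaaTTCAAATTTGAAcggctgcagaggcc
CKAP5: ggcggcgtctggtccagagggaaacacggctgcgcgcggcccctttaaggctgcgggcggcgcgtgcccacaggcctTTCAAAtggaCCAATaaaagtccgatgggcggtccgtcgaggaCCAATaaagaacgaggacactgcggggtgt
KIF22: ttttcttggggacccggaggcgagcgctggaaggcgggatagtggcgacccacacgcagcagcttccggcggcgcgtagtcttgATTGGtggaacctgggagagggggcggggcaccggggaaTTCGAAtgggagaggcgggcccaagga
The PLK1 window is chr16:23678739-23678888 on the plus strand, CEP55 is chr10:93496462-93496611 on the plus strand and ANLN is chr7:36389712-36389861 on the plus strand. The CKAP5 window is chr11:46846281-46846430 on the minus strand, and KIF22 is chr16:29790601-29790750 on the plus strand. Counted back from the start, the CHR core of PLK1 begins at position -29 and that of KIF22 at -27. ANLN has abutting cores at -26 and -20 and no CCAAT box, while CKAP5 has a core at -73, a further one at 18 after the start, outside the printed bases, and CCAAT boxes at -63 and -30. CEP55 has a core at -116, and a further one at -3 crosses the start and is not in the printed bases. Over the knockdowns described below, the genes with a CHR core (20 measured) had a median difference from the control of -1.22 on the log2(FPKM + 1) scale, and those without one (10) also had -1.22. Only the first listed window of each symbol was searched, so a gene counted as without a core may have one outside that window or at another start. The part of the CHR in these differences was not tested.

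The labels were checked first. Of 11 targets analysed, 8 were lowest in their own library. The extent differed among them: FOXA1 was at 60.6 FPKM in siFOXA1 against 137 in the control, and FOXM1 at 0.474 in siFOXM1 against 20.1. CTCF was at 3.72 FPKM in siCTCF against 22.2 in the control, and RAD21 at 6.97 in siRAD21 against 88.5. BRCA1 was the 3rd lowest in its own library, though well below the control (1.83 FPKM against 11.1). BRCA2 was the 9th lowest in its own library (1.23 FPKM against 3.25 in the control) and MALAT1 the 12th lowest, at 21.7 FPKM against 16.4 in the control. The siPCAT1 label could not be checked in this way, since PCAT1 was not analysed here. Luminal prostate markers were present: KRT8, KRT18, EPCAM and HOXB13 were at 37.7 FPKM or more in all libraries, although KLK3, an androgen-driven gene, reached only 0.5245 FPKM. Of the other markers measured, basal KRT14 (1 of 3) was at 0 in 4 libraries and at most 0.830 FPKM, stromal COL1A1 and COL3A1 (2 of 5) summed to 1.15 to 3.77, endothelial PECAM1 (1 of 3) lay between 0.637 and 1.01, and immune PTPRC and CD68 (2 of 4) summed to 4.85 in siKDM1A and 12.15 in siFOXM1. The part of these markers in the results below was not tested.

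All 36 genes were lower in most knockdowns than in the control. Of 432 pairs of a gene and a knockdown, 430 lay below the control, and 272 were at least 2-fold lower, that is, at least 1 lower on the log2(FPKM + 1) scale used for every difference here. The 2 pairs above the control were CDC25A and UBE2S in siBRCA2. Among all 15780 genes, the share at least 2-fold lower lay between 0.741% in siEED and 4.22% in siFOXA1. In these bulk libraries, fewer dividing cells and less RNA per cell cannot be told apart. The knockdowns formed a graded order. The median gene was at 80.7% of its control FPKM in siEED, 54.4% in siBRCA1, 36.3% in the library labelled siMALAT1, 16.1% in siCTCF and 7.76% in siFOXA1. The median difference was -0.30 in siEED, -0.34 in siBRCA2, -0.81 in siBRCA1, -0.93 in siKDM1A, -1.10 in siRAD21 and -1.25 in siPCAT1. It was -1.32 in the library labelled siMALAT1, -1.73 in siSMARCA4, -2.19 in siCTCF, -2.46 in siEZH2, -2.55 in siFOXM1 and -2.71 in siFOXA1. The median over all 15780 genes lay between 0.0057 and 0.0535 in these comparisons. The libraries share a distribution of values, which tends to keep that median small. With the other 11 knockdowns as reference in place of the control, the median of the 36 was above 0 in the mildest libraries, at 0.9996 in siEED and 0.97 in siBRCA2, and -1.52 in siFOXA1.

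**Figure D1:**
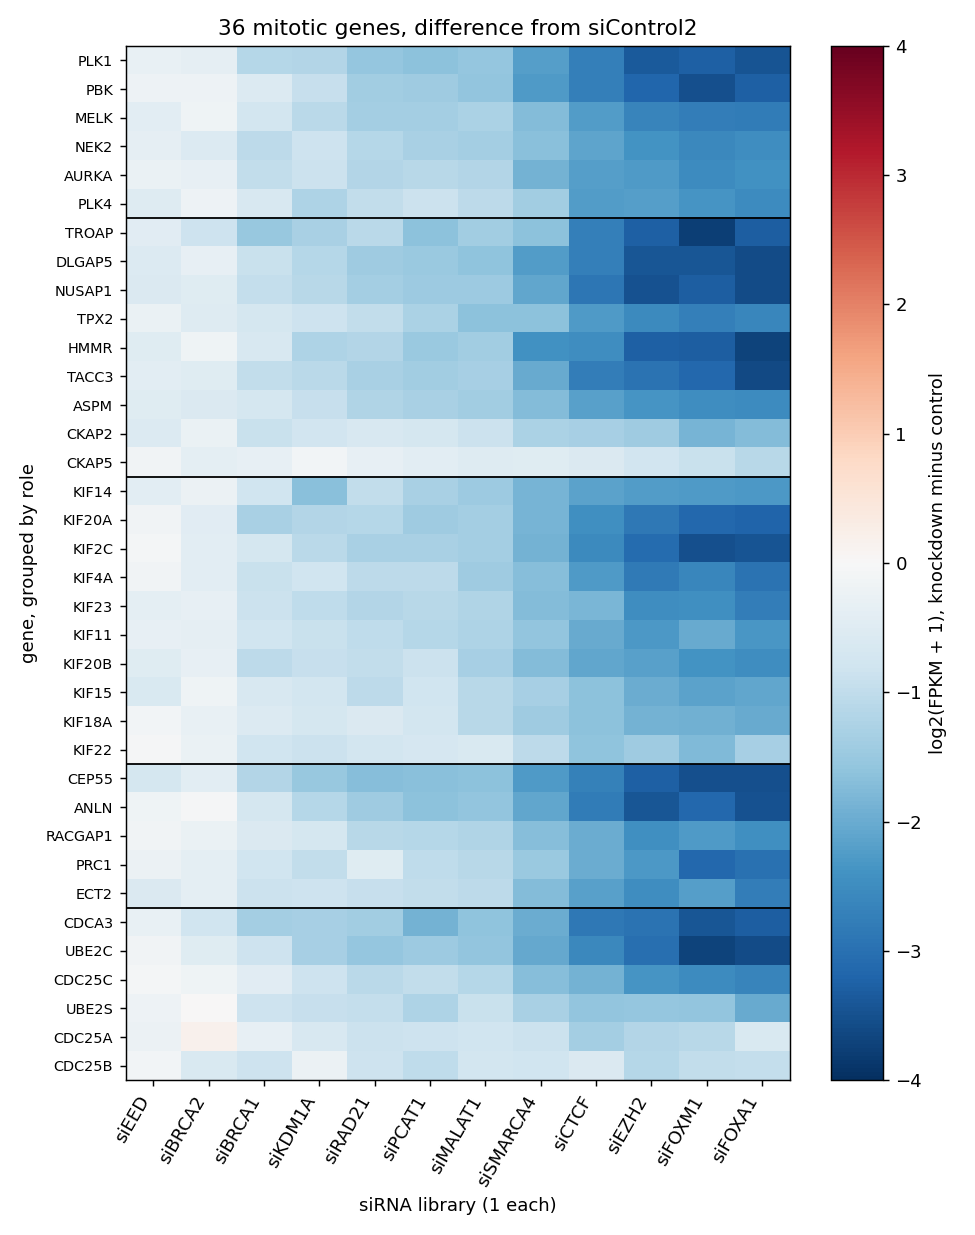
Difference from siControl2 in log2(FPKM + 1) for 36 mitotic genes (rows, grouped by role and ordered by median within a role) in 12 knockdown libraries (columns, 1 library each, ordered by the median over the genes); blue is lower than the control and red is higher. Columns darken from siEED, where the median was -0.30, to siFOXA1, where it was -2.71, and CKAP5, CDC25A and CDC25B stay pale.

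The number of genes at least 2-fold lower broadly followed the same order. None of the 36 was 2-fold lower in siEED, where 0.741% of all genes were, and none in siBRCA2, where 0.760% were. There were 7 in siBRCA1 (0.944% of all genes), 16 in siKDM1A (1.55%), 23 in siRAD21 (1.88%) and 26 in siPCAT1 (1.33%). The library labelled siMALAT1 had 30 (1.57% of all genes) and siSMARCA4 had 33 (1.97%). In siCTCF there were 34 (2.85%), in siEZH2 35 (3.09%), in siFOXM1 34 (3.60%) and in siFOXA1 34 (4.22%). These counts depend on the 1 FPKM added before taking logs. With 0.1 FPKM added instead, they were 9 in siBRCA1, 19 in siKDM1A, 27 in siRAD21, 29 in siPCAT1, 35 in siFOXM1 and 35 in siFOXA1. They did not change in the other libraries. Of the 36, 31 were 2-fold lower in 6 or more knockdowns, against 240 of all genes (1.52%), and 26 were so without siPCAT1 and the library labelled siMALAT1. The 5 that were so in 10 knockdowns, all but siEED and siBRCA2, were PLK1, TROAP, KIF20A, CEP55 and CDCA3, and 26 of all genes (0.165%) reached 10. No gene was so in 11 or more, so leaving out any one of those 10 libraries necessarily brings the 5 to 0. The lowest library was siFOXA1 for 22 genes, siFOXM1 for 12, siEZH2 for CDC25B and siCTCF for CDC25A. For 30 genes the 3 lowest libraries were siFOXA1, siFOXM1 and siEZH2, and for 34 the 4 lowest were these with siCTCF.

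A few names recurred at the edges of the spread among the genes. CEP55 was furthest below the median of the genes in siEED (-0.69), in siRAD21 (-1.69) and in the library labelled siMALAT1 (-1.64), with KIF15 next in siEED (-0.61), UBE2C in siRAD21 (-1.55) and TPX2 in the library labelled siMALAT1 (-1.64). TROAP was lowest in siBRCA1 (-1.52), siBRCA2 (-0.82) and siFOXM1 (-3.77), where CDCA3 (-1.35 and -0.79) and UBE2C (-3.695) followed. CDCA3 led in siPCAT1 (-1.88, with CEP55 at -1.68) and KIF14 in siKDM1A (-1.68, with CEP55 at -1.51). HMMR was lowest in siSMARCA4 (-2.43, with PBK at -2.26) and siFOXA1 (-3.71, with TACC3 at -3.61). NUSAP1 was lowest in siCTCF (-2.89, with CDCA3 at -2.84) and siEZH2 (-3.50, with ANLN at -3.43). At the upper edge, CKAP5 was the least lowered gene in 9 of the 12 knockdowns. In siEED the upper pair was KIF22 and KIF2C, in siBRCA2 CDC25A and UBE2S, and in siFOXA1 CDC25A and CDC25B. Differences of genes with low FPKM are understated on this scale: ASPM was at 4.37% of its control FPKM in siFOXA1 with a difference of -2.51, and HMMR at 5.22% with -3.71. By share of the control FPKM, some of the lowest genes were different ones. They were KIF15 in siEED, KIF14 in siSMARCA4 and the library labelled siMALAT1, ASPM in siCTCF, and CEP55 in siEZH2 and siFOXA1. In the other libraries the lowest gene was the same by both measures.

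Among the kinases, PLK1, the polo-like kinase that acts from centrosome maturation to cytokinesis, was at 36.3 FPKM in the control, 29.5 in siEED, 28.2 in siBRCA2, 15.9 in siBRCA1, 15.65 in siKDM1A and 11.85 in siRAD21. It stood at 11.05 FPKM in siPCAT1, 11.7 in the library labelled siMALAT1, 7.09 in siSMARCA4, 4.56 in siCTCF, 2.67 in siEZH2, 2.87 in siFOXM1 and 2.41 in siFOXA1. The levels run down in nearly the order of the medians, with siFOXA1, siEZH2 and siFOXM1 close together at the bottom. AURKA, the Aurora kinase of centrosomes and spindle poles, was at 23.5 FPKM in the control, 19.2 in siEED, 18.7 in siBRCA2, 11.3 in siBRCA1, 12.4 in siKDM1A and 9.76 in siRAD21. Other AURKA levels were 10.3 FPKM in siPCAT1, 9.755 in the library labelled siMALAT1, 5.605 in siSMARCA4, 4.34 in siCTCF, 4.13 in siEZH2, 3.27 in siFOXM1 and 3.58 in siFOXA1. AURKA was 2-fold lower in 8 knockdowns and just short of that mark in siBRCA1 (-0.9961). PLK4, the kinase that starts centriole duplication, had 10.6 FPKM in the control, 7.19 in siEED, 9.12 in siBRCA2, 6.44 in siBRCA1, 3.93 in siKDM1A and 4.91 in siRAD21. It had 5.47 FPKM in siPCAT1, 4.67 in the library labelled siMALAT1, 3.39 in siSMARCA4, 1.48 in siCTCF, 1.497 in siEZH2, 1.285 in siFOXM1 and 1.03 in siFOXA1. Its level in siKDM1A was below those in siPCAT1, siRAD21 and the library labelled siMALAT1, an order seen in only 3 of the 36 genes. NEK2, a kinase that separates centrosomes, went from 24.3 FPKM in the control to 3.22 in siFOXM1 and was 2-fold lower in 9 knockdowns. PBK, a mitotic kinase of the MAPKK-like family, went from 42.7 to 2.815 FPKM in siFOXM1 and was 2-fold lower in 8. MELK, a kinase of the AMPK-related family, went from 15.65 to 1.40 FPKM in siFOXA1 and was 2-fold lower in 9. All 6 kinases were 2-fold lower in siSMARCA4, siCTCF, siEZH2, siFOXM1, siFOXA1 and the library labelled siMALAT1.

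The spindle proteins included the gene with the lowest single difference of the 36, TROAP, and the one that was 2-fold lower in the fewest knockdowns, CKAP5. TPX2, which activates AURKA and nucleates microtubules near chromosomes, was at 38.5 FPKM in the control, 32.2 in siEED, 26.7 in siBRCA2, 23.1 in siBRCA1, 21.1 in siKDM1A and 19.2 in siRAD21. TPX2 was also at 15.6 FPKM in siPCAT1, 11.65 in the library labelled siMALAT1, 11.5 in siSMARCA4, 7.23 in siCTCF, 5.83 in siEZH2, 4.91 in siFOXM1 and 5.41 in siFOXA1. TPX2 was lower in the library labelled siMALAT1 than in siRAD21 and siPCAT1, and siFOXM1 was its lowest library. TROAP, a microtubule-binding protein needed for bipolar spindles, was at 27.4 FPKM in the control, 19.9 in siEED, 15.1 in siBRCA2, 8.91 in siBRCA1, 10.4 in siKDM1A and 12.4 in siRAD21. Its other levels were 8.10 FPKM in siPCAT1, 9.80 in the library labelled siMALAT1, 8.02 in siSMARCA4, 3.23 in siCTCF, 1.96 in siEZH2, 1.09 in siFOXM1 and 1.86 in siFOXA1. TROAP was lower in siBRCA1 than in siRAD21 and siKDM1A, and its level in siFOXM1 was the smallest share of the control among the 36 genes there, 3.97%. CKAP5, the microtubule polymerase chTOG that all growing microtubules use, was at 38.6 FPKM in the control, 35.0 in siEED, 29.4 in siBRCA2, 30.5 in siBRCA1, 35.6 in siKDM1A and 30.6 in siRAD21. Next came 28.45 FPKM in siPCAT1, 27.0 in the library labelled siMALAT1, 27.2 in siSMARCA4, 25.8 in siCTCF, 22.45 in siEZH2, 20.4 in siFOXM1 and 17.5 in siFOXA1. CKAP5 was 2-fold lower in siFOXA1 alone (-1.10), where it was at 45.4% of the control, as the plot of levels shows. CKAP2, another microtubule-associated protein, was 2-fold lower in 5 knockdowns and lowest in siFOXM1 (23.8 against 5.87 FPKM). The other spindle genes were lowest in siFOXA1: HMMR went from 38.3 to 2.00 FPKM, TACC3, the partner of CKAP5 on the spindle, from 64.2 to 4.34, and NUSAP1, a microtubule bundler, from 61.2 to 4.17. DLGAP5 (HURP), which stabilises kinetochore fibres, went from 26.3 to 1.27 FPKM and ASPM, a spindle pole protein, from 6.25 to 0.273. HMMR, TACC3, NUSAP1 and DLGAP5 were 2-fold lower in 9 knockdowns, ASPM in 8 and TPX2 in 7. On the log2(FPKM + 1) scale the median of the 9 spindle genes was the lowest of the 5 role groups in siFOXA1 (-3.31). The others were -2.97 for cytokinesis, -2.66 for the kinases, -2.41 for the kinesins and -2.34 for the phosphatases and ubiquitin enzymes. This order does not rank the groups by share of the control, since the scale understates genes with low FPKM, among them several kinesins. In siFOXA1 KIF18A, at 6.26% of its control, had -2.00, and TACC3, at 6.755%, had -3.61.

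**Figure D2:**
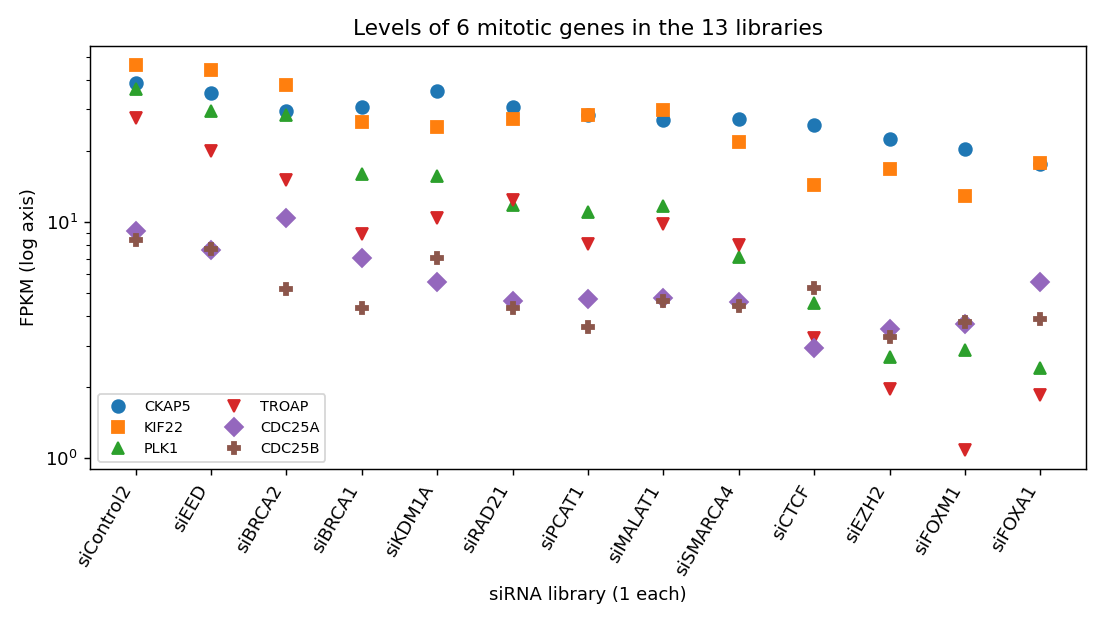
FPKM (log axis) of CKAP5, KIF22, PLK1, TROAP, CDC25A and CDC25B in the control and the 12 knockdown libraries, 1 point per library. PLK1 and TROAP are at 2.41 and 1.86 in siFOXA1 and at 36.3 and 27.4 in the control, while CKAP5 stays between 17.5 and 38.6.

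Of the 10 kinesins measured, all were 2-fold lower in siSMARCA4, siCTCF, siEZH2, siFOXM1 and siFOXA1. KIF20A (MKLP2), which carries the chromosomal passenger complex to the central spindle, was at 15.7 FPKM in the control, 14.2 in siEED, 11.1 in siBRCA2, 5.84 in siBRCA1, 6.33 in siKDM1A and 6.48 in siRAD21. In the remaining libraries it was at 5.21 FPKM in siPCAT1, 5.54 in the library labelled siMALAT1, 3.62 in siSMARCA4, 2.03 in siCTCF, 1.27 in siEZH2, 0.8705 in siFOXM1 and 0.815 in siFOXA1. The KIF20A level was 90.6% of the control in siEED but 37.3% in siBRCA1. KIF2C (MCAK), a depolymerase that corrects faulty kinetochore attachments, was at 23.1 FPKM in the control, 22.0 in siEED, 17.0 in siBRCA2, 13.9 in siBRCA1, 10.5 in siKDM1A and 8.865 in siRAD21. It was then at 8.72 FPKM in siPCAT1, 8.34 in the library labelled siMALAT1, 5.46 in siSMARCA4, 3.15 in siCTCF, 1.86 in siEZH2, 1.11 in siFOXM1 and 1.21 in siFOXA1. KIF2C had the longest span of the kinesins, from -0.065 in siEED to -3.51 in siFOXM1. KIF22 (Kid), which pushes chromosome arms away from the poles, was at 46.0 FPKM in the control, 44.1 in siEED, 38.0 in siBRCA2, 26.4 in siBRCA1, 25.2 in siKDM1A and 27.3 in siRAD21. Its levels elsewhere were 28.35 FPKM in siPCAT1, 29.7 in the library labelled siMALAT1, 21.7 in siSMARCA4, 14.3 in siCTCF, 16.7 in siEZH2, 12.9 in siFOXM1 and 17.8 in siFOXA1. KIF22 was 2-fold lower in 5 knockdowns only and was lower in siFOXM1, siCTCF and siEZH2 than in siFOXA1. KIF11 (Eg5), the motor that separates the poles, went from 12.5 to 1.675 FPKM in siFOXA1, and KIF15, which assists it, from 4.43 to 0.219 in siFOXM1. KIF4A, a motor of chromosome arms and the midzone, went from 12.8 to 0.7815 FPKM and KIF18A, which dampens chromosome oscillations, from 4.004 to 0.251. KIF23 (MKLP1) of the centralspindlin complex went from 11.3 to 0.807 FPKM. KIF20B, a cytokinesis motor, went from 12.6 to 1.425 FPKM. It was 2-fold lower in siBRCA1 (-1.03) but not in siPCAT1 (-0.85). KIF14, which recruits citron kinase to the midbody, was at 1.30 FPKM in siKDM1A against 6.37 in the control, and KIF14 was lower there than in siBRCA1, siRAD21, siPCAT1 and the library labelled siMALAT1. Among these kinesins KIF23 and KIF2C were 2-fold lower in 9 knockdowns, KIF4A, KIF11 and KIF14 in 8, KIF15 and KIF20B in 7 and KIF18A in 6.

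Kinesins with other functions in the cell are set beside them. Of 22 further kinesin and light chain genes that passed the filter, which mainly carry cargo along microtubules or act in cilia, none was 2-fold lower in 6 or more knockdowns. Of their 264 pairs with a knockdown, 2 were 2-fold lower (KIF3B in siPCAT1 and KIF26B in siFOXA1), and their median lay between -0.19 in siEED and 0.24 in siPCAT1. A further 4 pairs were 2-fold higher: KIFC2 in siFOXA1, and KIF5C in siKDM1A, siCTCF and siFOXM1. KIF5C was low in the control, at 0.655 FPKM. By mean difference the lowest were KIF26B and KIF1C, and the highest were KIF5C and KIF13B. A second list held 31 paralogs of the kinases, TACC3 and the ubiquitin-conjugating enzymes. None of these was 2-fold lower in 6 or more knockdowns, and of 372 pairs 3 were 2-fold lower and 6 were 2-fold higher. Their lowest were UBE2K and NEK7, and their highest were PLK2 and MARK2.

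**Figure D3:**
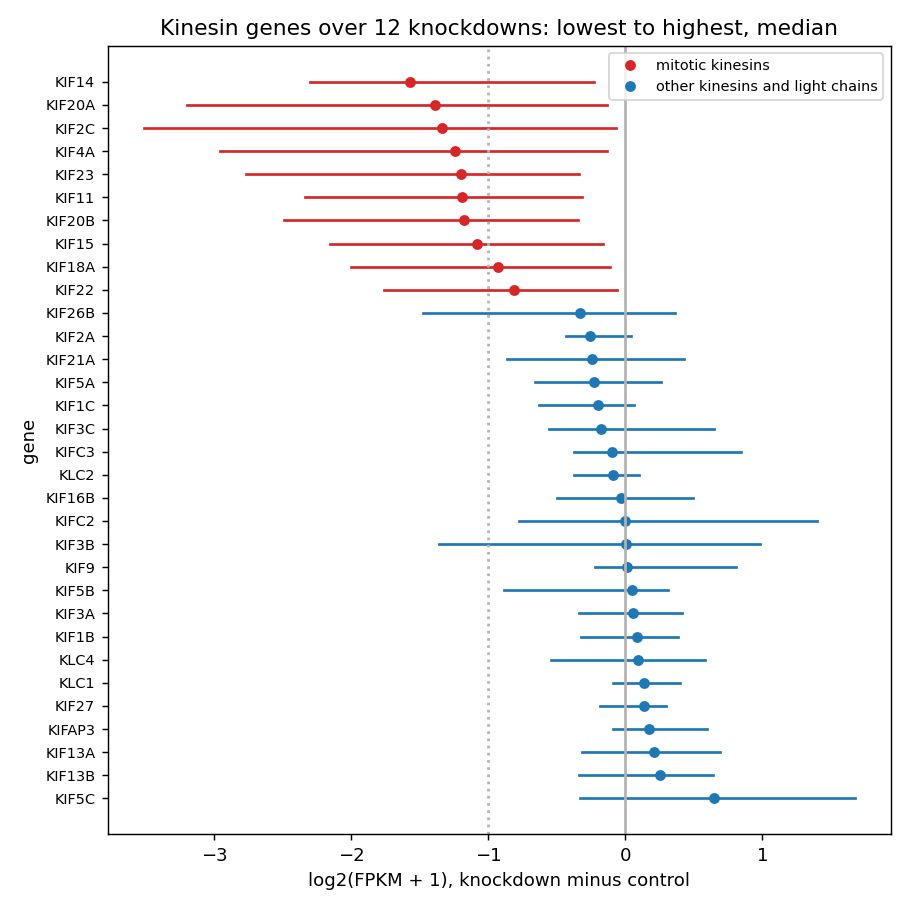
Difference from siControl2 in log2(FPKM + 1) for 10 mitotic kinesins (red) and 22 other kinesin and light chain genes (blue); each line runs from the lowest to the highest of 12 knockdowns, the point is their median and the dotted line marks 2-fold lower. Every red median lies below every blue one, with KIF22 the nearest red gene at -0.81.

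All 5 cytokinesis genes lay below the control in every knockdown. CEP55, the midbody scaffold that recruits the abscission machinery, was at 19.3 FPKM in the control, 11.6 in siEED, 14.1 in siBRCA2, 7.93 in siBRCA1, 6.145 in siKDM1A and 5.29 in siRAD21. Beside these were 5.34 FPKM in siPCAT1, 5.51 in the library labelled siMALAT1, 3.25 in siSMARCA4, 2.09 in siCTCF, 1.10 in siEZH2, 0.768 in siFOXM1 and 0.766 in siFOXA1. CEP55 was 2-fold lower in 10 knockdowns, and in siFOXA1 its 3.96% of the control was the smallest share of any of the 36 genes in any library. ANLN (anillin), which links actin and myosin in the contractile ring, was at 27.5 FPKM in the control, 24.3 in siEED, 26.5 in siBRCA2, 16.5 in siBRCA1, 11.9 in siKDM1A and 9.67 in siRAD21. ANLN then had 8.11 FPKM in siPCAT1, 8.55 in the library labelled siMALAT1, 5.78 in siSMARCA4, 3.14 in siCTCF, 1.64 in siEZH2, 2.23 in siFOXM1 and 1.56 in siFOXA1. Its level in siBRCA2 was nearly that of the control (96.4%), and it was 2-fold lower in 9 knockdowns. ECT2, the RhoA exchange factor of the cleavage furrow, went from 34.9 to 4.28 FPKM in siFOXA1 and was 2-fold lower in 6 knockdowns. RACGAP1, its activator in centralspindlin, went from 31.1 to 4.85 FPKM in siFOXA1 and was 2-fold lower in 8. PRC1, which bundles the central spindle, went from 32.8 to 2.80 FPKM in siFOXM1. It was 2-fold lower in 7 knockdowns. In siRAD21 PRC1 was at 23.0 FPKM, a difference of -0.50, 0.60 above the median of the 36 genes there.

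The CDC25 phosphatases, which activate cyclin-dependent kinases, differed among themselves. CDC25A, which also acts at entry into DNA replication, was at 9.14 FPKM in the control, 7.59 in siEED, 10.4 in siBRCA2, 7.07 in siBRCA1, 5.555 in siKDM1A and 4.62 in siRAD21. CDC25A was also at 4.705 FPKM in siPCAT1, 4.79 in the library labelled siMALAT1, 4.57 in siSMARCA4, 2.94 in siCTCF, 3.52 in siEZH2, 3.72 in siFOXM1 and 5.58 in siFOXA1. CDC25A was the only one of the 36 genes that was lowest in siCTCF, it was above the control in siBRCA2, and siFOXA1 was only its 9th lowest of 13 libraries. CDC25B, which acts at centrosomes on the way into mitosis, was at 8.38 FPKM in the control, 7.70 in siEED, 5.19 in siBRCA2, 4.34 in siBRCA1, 7.03 in siKDM1A and 4.34 in siRAD21. The rest stood at 3.59 FPKM in siPCAT1, 4.63 in the library labelled siMALAT1, 4.42 in siSMARCA4, 5.25 in siCTCF, 3.26 in siEZH2, 3.78 in siFOXM1 and 3.88 in siFOXA1. On the log2(FPKM + 1) scale CDC25B was 2-fold lower in siPCAT1 (-1.03) and siEZH2 (-1.14) only. It fell just short of that mark in siFOXM1 (-0.97) and siFOXA1 (-0.94), although its FPKM there was 45.1% and 46.3% of the control. In siCTCF, among the lowest libraries for most genes, it was at 5.25 FPKM, higher than in 9 others. CDC25C, the mitotic form, went from 7.89 to 0.414 FPKM in siFOXA1 and was 2-fold lower in 7 knockdowns.

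The ubiquitin enzymes that serve the anaphase promoting complex (APC/C) differed in how far they were lower, and UBE2S had the highest level of the 36 genes in the control. UBE2C, which primes chains on its substrates, was at 59.8 FPKM in the control, 54.6 in siEED, 42.7 in siBRCA2, 33.3 in siBRCA1, 23.2 in siKDM1A and 19.7 in siRAD21. For UBE2C the other values were 21.4 FPKM in siPCAT1, 19.1 in the library labelled siMALAT1, 13.6 in siSMARCA4, 9.15 in siCTCF, 6.46 in siEZH2, 3.69 in siFOXM1 and 4.13 in siFOXA1. UBE2C was 2-fold lower in 9 knockdowns and lowest in siFOXM1 (6.18% of the control). UBE2S, which extends those chains, was at 81.7 FPKM in the control, 71.2 in siEED, 82.1 in siBRCA2, 45.2 in siBRCA1, 42.4 in siKDM1A and 41.6 in siRAD21. It was next at 34.0 FPKM in siPCAT1, 43.7 in the library labelled siMALAT1, 32.8 in siSMARCA4, 26.6 in siCTCF, 27.2 in siEZH2, 26.7 in siFOXM1 and 19.4 in siFOXA1. UBE2S in siBRCA2 was level with the control (100.5%). It was 2-fold lower in 6 knockdowns, with its lowest level in siFOXA1. CDCA3, a trigger of mitotic entry, went from 35.3 FPKM in the control to 2.38 in siFOXM1 and was 2-fold lower in 10 knockdowns. The 13 APC/C genes listed for comparison were subunits and the activator FZR1, with no other activator. They had 1 of 156 pairs 2-fold lower (ANAPC11 in siEZH2, -1.13), and none was so in 6 or more knockdowns. By mean difference CDC27 and ANAPC11 were their lowest, and CDC26 and ANAPC13 their highest.

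Further genes of the mitotic pathway were counted in the same way. Among 17 partners of the genes above, such as the chromosomal passenger genes AURKB and BIRC5 and the cyclin B genes, 14 were 2-fold lower in 6 or more knockdowns and 119 of 204 pairs were 2-fold lower. Their median ran from -0.29 in siEED to -2.87 in siFOXA1 and -2.94 in siFOXM1. BIRC5 and AURKB were lowest by mean difference, and BORA, the activator of AURKA, and CENPJ, a centriole protein, were highest. Of 23 genes of the spindle machinery present through the whole cell cycle (augmin, gamma-tubulin ring, dynein and pericentriolar genes), only HAUS8 was 2-fold lower in 6 or more knockdowns, and 12 of 276 pairs were. Their median lay between -0.43 in siFOXM1 and -0.0153 in siEED, with HAUS8 and HAUS1, subunits of augmin, the lowest and DYNC1H1 and TUBGCP6 the highest.

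**Figure D4:**
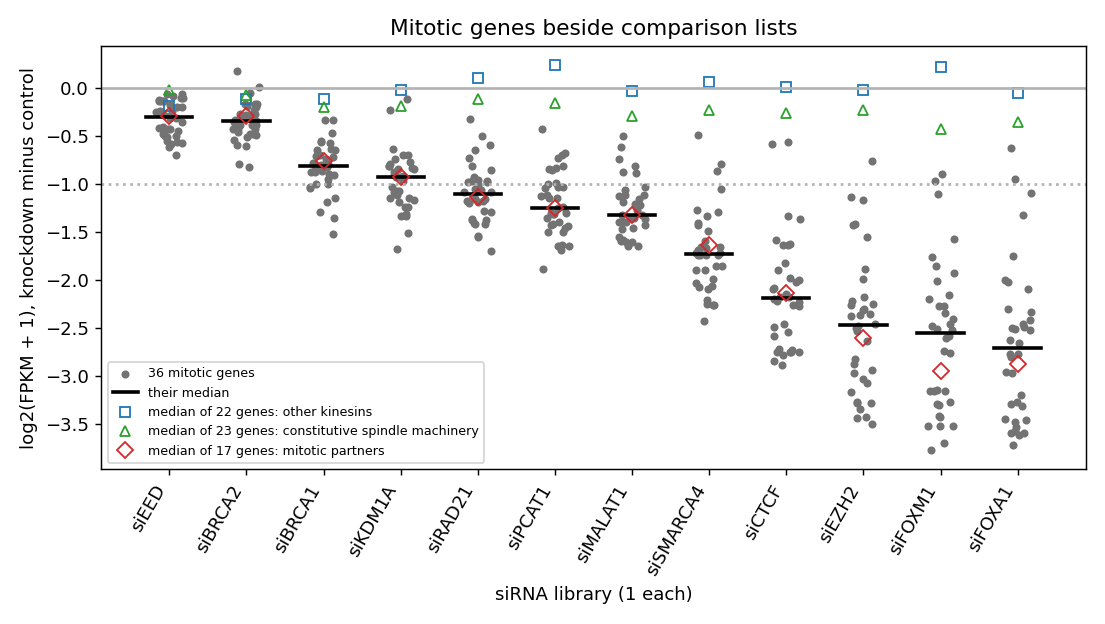
Difference from siControl2 in log2(FPKM + 1) of 36 mitotic genes (grey points, black bar at their median) in each of 12 knockdown libraries, with the medians of 3 comparison lists as open symbols; the dotted line marks 2-fold lower. The medians of mitotic partners (red) go down with the black bars, to -2.94 in siFOXM1, and those of other kinesins (blue) and constitutive spindle genes (green) stay between -0.43 and 0.24.

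Of the genes that left the common order of libraries, 10 had a library 3 or more places away from its rank by the medians. They were PLK4 and KIF14 for siKDM1A, CKAP2 and TROAP for siBRCA1, UBE2S for the library labelled siMALAT1, and CKAP5, KIF20B, KIF22, CDC25A and CDC25B for several libraries. The common order was otherwise close: 34 of the 36 genes were lower in siSMARCA4 than in each of the 7 knockdowns with a median nearer 0.

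Comparing knockdown libraries directly leaves the control out. Between siFOXA1 and siFOXM1, the knockdowns of the forkhead factor that opens chromatin at prostate genes and of the forkhead factor of the cell cycle, the median difference over the 36 genes was -0.042. No gene was 2-fold lower in siFOXA1 (3.03% of all genes were) or 2-fold higher (2.57%), and 22 were lower. The median of all genes for this pair was 0.0064. The values of the 36 genes ran from ECT2 at -0.56 to CDC25A at 0.48. Between siEZH2 and siEED, knockdowns of subunits of the same Polycomb complex, PRC2, all 36 genes were lower in siEZH2, 33 of them 2-fold (2.81% of all genes), with a median of -2.15. The extremes were ANLN (-3.26) and CKAP5 (-0.62). The targets themselves were lowered to different extents: EZH2 was at 2.20 FPKM in siEZH2 against 16.4 in the control, and EED at 4.13 in siEED against 8.94. The part of this in the difference between these libraries was not tested. Between siCTCF and siRAD21, knockdowns of the insulator factor and of a cohesin subunit, 35 genes were lower in siCTCF and 23 were 2-fold lower (1.79% of all genes), with a median of -1.08. TROAP was at -1.66 and CDC25B, the single gene above 0, at 0.23.

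**Figure D5:**
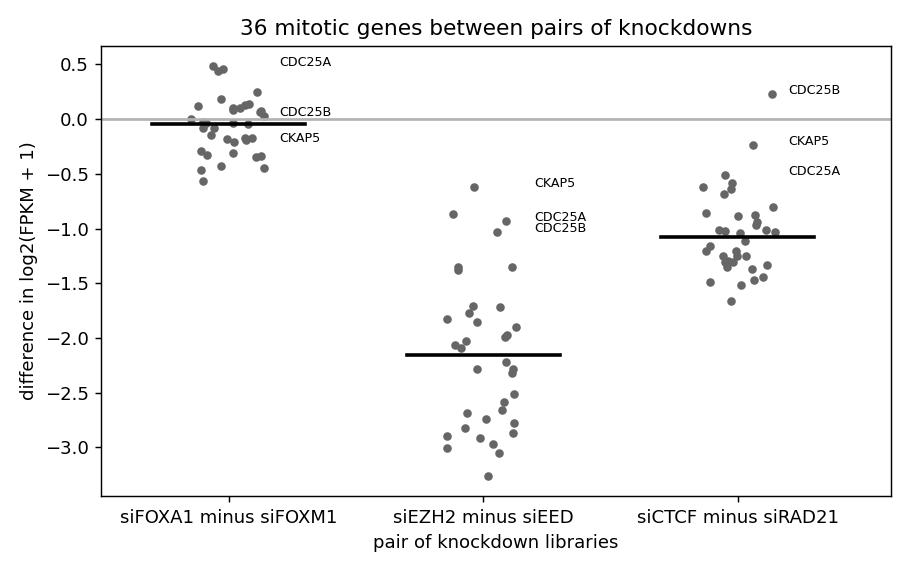
Difference in log2(FPKM + 1) between pairs of knockdown libraries for 36 mitotic genes (points) with their median (bar); the names of CKAP5, CDC25A and CDC25B are written at the height of their points. The siFOXA1 and siFOXM1 pair is centred near 0 (-0.042), siEZH2 lies below siEED (-2.15) and siCTCF below siRAD21 (-1.08).

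The known transcriptional regulators of these genes are given beside them, and their part in the result was not tested. FOXM1, the forkhead activator of mitotic genes, was at 20.1 FPKM in the control, 15.6 in siEED, 13.1 in siBRCA2, 9.32 in siBRCA1, 11.7 in siKDM1A and 9.42 in siRAD21. It was at 6.63 FPKM in siPCAT1, 7.56 in the library labelled siMALAT1, 6.73 in siSMARCA4, 4.83 in siCTCF, 2.47 in siEZH2, 0.474 in siFOXM1 and 1.75 in siFOXA1. FOXM1 was lowest in its own library and next lowest in siFOXA1 and siEZH2. MYBL2 (B-Myb), which joins the MuvB core at CHR promoters, was at 25.9 FPKM in the control, 14.5 in siEED, 22.6 in siBRCA2, 10.9 in siBRCA1, 12.1 in siKDM1A and 7.84 in siRAD21. MYBL2 had 5.81 FPKM in siPCAT1, 6.34 in the library labelled siMALAT1, 5.01 in siSMARCA4, 2.88 in siCTCF, 2.02 in siEZH2, 1.47 in siFOXM1 and 1.11 in siFOXA1. Both were lower in all 12 knockdowns. LIN9, a MuvB subunit, was 2-fold lower in 5 knockdowns, while LIN37, LIN52, LIN54 and RBBP4 were so in none. CDKN1A (p21), the cyclin-dependent kinase inhibitor that halts the cycle, was at 22.5 FPKM in the control, 50.4 in siEED, 79.7 in siBRCA2, 95.4 in siBRCA1, 100.5 in siKDM1A and 88.4 in siRAD21. It was at 24.99 FPKM in siPCAT1, 36.1 in the library labelled siMALAT1, 130.5 in siSMARCA4, 440.0 in siCTCF, 47.5 in siEZH2, 77.6 in siFOXM1 and 82.6 in siFOXA1. CDKN1A was higher in all 12 knockdowns, most in siCTCF (4.23) and siSMARCA4 (2.48) and least in siPCAT1 (0.15). The difference was 1.13 in siEED and 1.78 in siBRCA2. Over all 17 regulators listed, 29 of 204 pairs were 2-fold lower. MYBL2 and FOXM1 were lowest by mean difference, and CDKN1A and E2F5 highest.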

How the data were processed

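Per the labels' protocols, LNCaP-abl cells were transfected with siRNA pools, RNA was extracted on columns and libraries were made with the Illumina TruSeq kit. TopHat, Cufflinks and the hg19 build are named, without versions, per the submitters' processing notes. The authors deposited log2 values of FPKM, 1 value per gene entry and library. The floor of these values is the log2 of 0.1, so they were read as log2(FPKM + 0.1), an offset that no label states. The sorted values of the 13 libraries differ by at most 0.0562, so they share a distribution. No label records that step, nor whether strand was used. Depth is unknown, so no counting interval is given.

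Values were turned back to FPKM and compared as log2(FPKM + 1) with siControl2. The pseudocount of 1 understates differences of low genes. Genes with a mean of at least 0.5 FPKM were kept, and small RNA entries were left out. With 1 library per group, no test was run, and 2-fold is a difference of 1. The median over 12 knockdowns, counts and ranges describe the genes. For each library the pair of genes furthest below and above the median is named, 15 genes have every value given, and comparison lists are described by counts, medians and their lowest and highest pair by mean difference. The genes and lists were chosen with earlier results of these data known. Promoters came from RefSeq on GRCh38.p14 (the first listed window of a symbol) and were joined by symbol, with no coordinates taken between builds. Of the marker genes listed, 1 is not reported here. Alternatives were a pseudocount of 0.1, centring on the median of all genes, the other 11 knockdowns as reference, no filter, and leaving libraries out. Python 3.11.15, pandas 2.3.3, numpy 2.4.6 and matplotlib 3.10.9 were used.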

Additional observations from a re-analysis of the deposited data

How the results depend on the processing

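The choice of reference mattered most. With the other 11 knockdowns (their median) as the reference, the median over the 36 genes was 0.9996 in siEED, 0.97 in siBRCA2, 0.50 in siBRCA1, 0.33 in siKDM1A, 0.19 in siRAD21, 0.066 in siPCAT1 and -0.025 in the library labelled siMALAT1. It was -0.50 in siSMARCA4, -1.01 in siCTCF, -1.28 in siEZH2, -1.39 in siFOXM1 and -1.52 in siFOXA1. Against that reference 0 genes were at least 2-fold lower in siBRCA1, siKDM1A, siRAD21, siPCAT1 and the library labelled siMALAT1, 1 was in siSMARCA4 and 19 were in siCTCF, beside 28 in siEZH2, 28 in siFOXM1 and 30 in siFOXA1. It also left 0 lower in siEED and siBRCA2, where 18 and 15 genes were at least 2-fold higher, as was 1 in siBRCA1. Of all 15780 genes, 0.203% (siSMARCA4) to 2.49% (siFOXA1) were 2-fold lower against it and 0.120% (siSMARCA4) to 2.40% (siFOXA1) 2-fold higher, with 1.01% higher in siEED and 1.03% in siBRCA2. This reference holds other knockdowns in which the genes were also low. The count of genes 2-fold lower in 10 or more knockdowns, 5, was between 0 and 5 with 1 library left out, 0 without any one of the 10 knockdowns that made it up, 5 without siEED or siBRCA2, and 0 without siPCAT1 and the library labelled siMALAT1. The values of 0 follow from the count itself, since no gene was 2-fold lower in more than 10 knockdowns. The count in 6 or more knockdowns, 31, was between 28 and 31 with 1 library left out. With a pseudocount of 0.1, the medians against the control ran from -0.31 in siEED to -3.55 in siFOXA1, and the median between siFOXA1 and siFOXM1 was -0.097. Of 432 single differences, 10 moved by over 1.5 times with that pseudocount and 1 with centring. Centring could change little, because the libraries share a distribution and the median of all genes was small in every comparison. No paired analysis was possible because each siRNA pool had 1 library. The single control library and the unknown depth limit every value here.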
